A study of Mus musculus with 12 samples.

Results

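The genes described here are 35 mouse genes that interferon-gamma is known to induce or that build MHC class I peptide presentation. They were picked by name as a pathway and not by their values, though earlier results of these data were known. All 35 were among the 16805 genes counted in the neutrophil table and the 16954 genes counted in the monocyte table. By role they comprise 8 guanylate binding proteins (Gbp2 to Gbp9), 7 immunity-related GTPases (Igtp, Irgm1, Irgm2, Iigp1, Tgtp1, Tgtp2, Ifi47), 3 regulators or chemokines (Irf1, Cxcl9, Socs1), the class I transactivator Nlrc5, the classical class I chains H2-K1 and H2-D1 with B2m, 5 nonclassical class I chains (H2-Q4, H2-Q6, H2-Q7, H2-T22, H2-T23), 5 genes of peptide transport, loading and trimming (Tap1, Tap2, Tapbp, Tapbpl, Erap1) and 3 immunoproteasome subunits (Psmb8, Psmb9, Psmb10).

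RNA was sequenced from spleen cells of wild-type mice around cryo-thermal therapy (CTT), in which a tumor is frozen and then heated in place. Cells labelled neutrophils, selected with anti-Ly6G, came from mice 12 h after CTT (n = 3) and from tumor-bearing mice given no therapy (control, n = 3). Cells labelled monocytes, selected with anti-CCR2, came from mice 5 days after CTT that also received anti-Ly6G, a neutrophil-depleting antibody (n = 3), and from mice 5 days after CTT without it (n = 3). Both monocyte groups had CTT. The titles call the libraries of a group biological replicates, but neither the mouse strain, the tumor nor the number of mice in a library is stated in the labels. Each p-value thus reflects only the variation among libraries, which may be technical in part.

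Interferon-gamma, made mainly by NK cells and T cells, binds a receptor of the Ifngr1 and Ifngr2 chains and, through JAK kinases, activates factors that bind gamma-activated sites and induce Irf1. IRF1 in turn binds interferon-stimulated elements in the promoters of GTPase and antigen presentation genes. The guanylate binding proteins and immunity-related GTPases attack the vacuoles of intracellular microbes, while the immunoproteasome cuts proteins into peptides that TAP carries into the endoplasmic reticulum, where they are loaded on class I chains paired with beta-2 microglobulin and shown to CD8 T cells.

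Promoter sequences from RefSeq (GRCm38.p6), each running from 250 bases before to 50 bases after a transcription start, were held for 27 of the 35 genes. They were searched on both strands for a gamma-activated site, TTCNNNGAA, where N is any base, and for an IRF-binding element, a GAAA followed after any 2 bases by another GAAA. The gamma-activated site was present for 8 of the 27 genes and in 26.7% of their 30 windows, against 8.3% of all 32851 promoter windows of this length: Gbp5, Gbp7, Igtp, Irgm2, Tgtp1, Tgtp2, Irf1 and Psmb8. The IRF-binding element was present for 14 of the 27 genes and in 46.7% of their windows, against 3.44% of all windows: B2m, Erap1, H2-T22, H2-T23, Socs1, the guanylate binding proteins Gbp2, Gbp3, Gbp5 and Gbp7 and the GTPases Igtp, Irgm1, Irgm2, Tgtp1 and Tgtp2. Either was present for 16 of the 27 genes and in 53.3% of their windows, against 11.3% of all windows. A match describes these letters in this window and is not evidence of binding.

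In 4 immunity-related GTPase promoters (Igtp, Irgm2, Tgtp1 and Tgtp2) the gamma-activated site was followed after 2 bases by the IRF-binding element on the same strand. Igtp (chr11:58199306-58199605, plus strand), Irgm2 (chr11:58214727-58215026, plus strand) and Tgtp2 (chr11:49064163-49064462, minus strand) are shown to display that arrangement, with the matches in capitals. Each sequence runs 5′ to 3′ on the strand of its gene.
Igtp: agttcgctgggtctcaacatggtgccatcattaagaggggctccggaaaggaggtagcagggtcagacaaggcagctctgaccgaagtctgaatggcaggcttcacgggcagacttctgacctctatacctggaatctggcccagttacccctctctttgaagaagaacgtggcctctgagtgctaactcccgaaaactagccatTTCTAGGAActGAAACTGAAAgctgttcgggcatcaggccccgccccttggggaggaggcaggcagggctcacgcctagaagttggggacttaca
Irgm2: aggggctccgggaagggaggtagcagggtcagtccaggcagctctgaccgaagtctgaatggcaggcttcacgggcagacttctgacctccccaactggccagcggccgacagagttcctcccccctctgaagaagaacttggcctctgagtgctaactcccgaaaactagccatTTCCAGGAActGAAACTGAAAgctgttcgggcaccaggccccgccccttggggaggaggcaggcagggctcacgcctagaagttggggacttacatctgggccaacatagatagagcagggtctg
Tgtp2: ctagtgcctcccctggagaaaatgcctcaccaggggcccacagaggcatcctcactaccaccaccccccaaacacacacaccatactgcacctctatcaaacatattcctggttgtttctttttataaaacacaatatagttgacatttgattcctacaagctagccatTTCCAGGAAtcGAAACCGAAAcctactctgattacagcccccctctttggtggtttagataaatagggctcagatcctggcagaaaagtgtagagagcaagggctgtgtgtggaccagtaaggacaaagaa
Igtp and Irgm2 are neighbours among the genes of the set on chromosome 11. The Igtp pair of matches lay with its first base 45 bases before the start, that of Irgm2 75 bases and that of Tgtp2 81 bases before it.

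Irgm1 (chr11:48871371-48871670, minus strand), Ifi47 (chr11:49076337-49076636, plus strand) and Psmb10 (chr8:105938343-105938642, minus strand) are shown because they were the 3 genes of the set that passed the test in monocytes, described further on. Irf1 (chr11:53769764-53770063, plus strand), the transcription factor that relays the signal, is shown for its own gamma-activated site.
Irgm1: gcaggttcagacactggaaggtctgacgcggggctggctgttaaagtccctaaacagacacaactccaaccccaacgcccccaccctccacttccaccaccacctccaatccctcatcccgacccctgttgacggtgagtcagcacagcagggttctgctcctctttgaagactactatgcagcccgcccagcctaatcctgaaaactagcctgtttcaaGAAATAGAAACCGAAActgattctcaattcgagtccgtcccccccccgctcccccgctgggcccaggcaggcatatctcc
Ifi47: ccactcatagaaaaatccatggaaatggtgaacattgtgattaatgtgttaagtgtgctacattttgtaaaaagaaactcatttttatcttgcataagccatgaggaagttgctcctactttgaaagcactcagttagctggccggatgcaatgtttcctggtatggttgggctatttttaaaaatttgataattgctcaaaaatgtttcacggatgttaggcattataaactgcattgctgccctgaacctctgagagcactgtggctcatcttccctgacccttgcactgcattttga
Psmb10: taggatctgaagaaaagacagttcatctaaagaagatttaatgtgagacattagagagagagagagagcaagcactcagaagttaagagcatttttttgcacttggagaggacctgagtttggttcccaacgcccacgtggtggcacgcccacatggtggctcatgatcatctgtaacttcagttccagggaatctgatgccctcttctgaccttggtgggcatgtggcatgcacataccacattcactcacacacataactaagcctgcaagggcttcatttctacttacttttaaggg
Irf1: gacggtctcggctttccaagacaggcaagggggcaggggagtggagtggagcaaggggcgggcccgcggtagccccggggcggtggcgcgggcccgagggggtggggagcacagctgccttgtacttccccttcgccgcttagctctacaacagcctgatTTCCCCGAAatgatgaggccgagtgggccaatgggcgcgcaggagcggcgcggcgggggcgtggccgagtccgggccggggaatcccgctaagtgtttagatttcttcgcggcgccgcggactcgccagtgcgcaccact
Irgm1 held 2 overlapping IRF-binding elements, which start 30 and 24 bases before the transcription start and share their middle GAAA, and no match to the gamma-activated site. Neither motif was found in the Ifi47 or Psmb10 windows, and the Irf1 window held a gamma-activated site 90 bases before the start. Psmb9 and Tap1, for an immunoproteasome subunit and a chain of the peptide transporter, start 225 bases apart on opposite strands of chromosome 17, so that their windows share 275 bases and held neither motif.

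Many of the 35 genes lie in clusters on GRCm38. Chromosome 17 holds 12 of them, in the mouse MHC and next to it, where Psmb9, Tap1, Psmb8 and Tap2 follow each other from 34182030 to 34216321. Chromosome 11 holds 7 (Irgm1, Tgtp1, Tgtp2, Ifi47, Irf1, Igtp and Irgm2), chromosome 3 holds Gbp5, Gbp7, Gbp3 and Gbp2, and chromosome 5 holds Gbp8, Gbp9, Gbp4, Gbp6 and Cxcl9. Tgtp1 and Tgtp2, the H2-Q and H2-T chains, H2-K1 and H2-D1, and the chromosome 5 guanylate binding proteins are close paralogs, so reads may have been split between copies and their single values are uncertain.

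The libraries held 30942849 to 34935547 counts (neutrophil table) and 31865982 to 35956571 counts (monocyte table). The selected cells were mixtures. In the neutrophil table, B cell markers summed to 5729 to 6310 CPM (counts scaled to library size by TMM) after CTT and 2817 to 7123 CPM in controls, beside neutrophil markers of 7408 to 12078 CPM after CTT and 3958 to 5841 CPM in controls. In the monocyte table, neutrophil markers summed to 12907 to 17474 CPM with anti-Ly6G and 4727 to 6560 CPM without it. Every marker gene of the 8 cell type lists that was in the tables had at least 33 counts in every library, and none was at 0. Control neutrophil replicate 1 stood apart, with erythroid markers at 11849 CPM against 1989 and 624 CPM in the other controls and 297 to 661 CPM after CTT. The lowest correlation of 2 neutrophil libraries over all tested genes (r = 0.916) was between it and CTT replicate 3. In such bulk samples fewer cells of a type and less RNA per cell cannot be told apart.

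Expression per gene length, given by the deposited FPKM values (counts per gene length and library size), spanned more than 3 orders of magnitude. B2m was highest, with a mean of 3565 FPKM in neutrophils after CTT and 2944 FPKM in controls, and 2147 FPKM in monocytes with anti-Ly6G and 2189 FPKM with CTT alone. H2-D1, H2-K1 and H2-T23, the mouse Qa-1 chain that presents to NK and CD8 T cell receptors, followed in every group. The GTPase gene Tgtp1 was lowest in each group, from 0.613 FPKM in CTT monocytes to 1.1 FPKM in control neutrophils. H2-K1, H2-D1 and B2m made up 82.8% to 83.1% of the summed FPKM of the 35 genes in neutrophils after CTT and 80.1% to 80.8% in controls, and 72.6% to 73.8% in monocytes with anti-Ly6G and 73.1% to 73.8% with CTT alone. The sum itself was 6681, 7333 and 7025 FPKM in the CTT neutrophil libraries, against 4777, 6465 and 7327 FPKM in the control libraries. In monocytes it was 6101, 6304 and 5992 FPKM with anti-Ly6G and 6235, 6309 and 6248 FPKM without. The 2 tables were normalized separately, and levels were not tested between them.

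**Figure D1:**
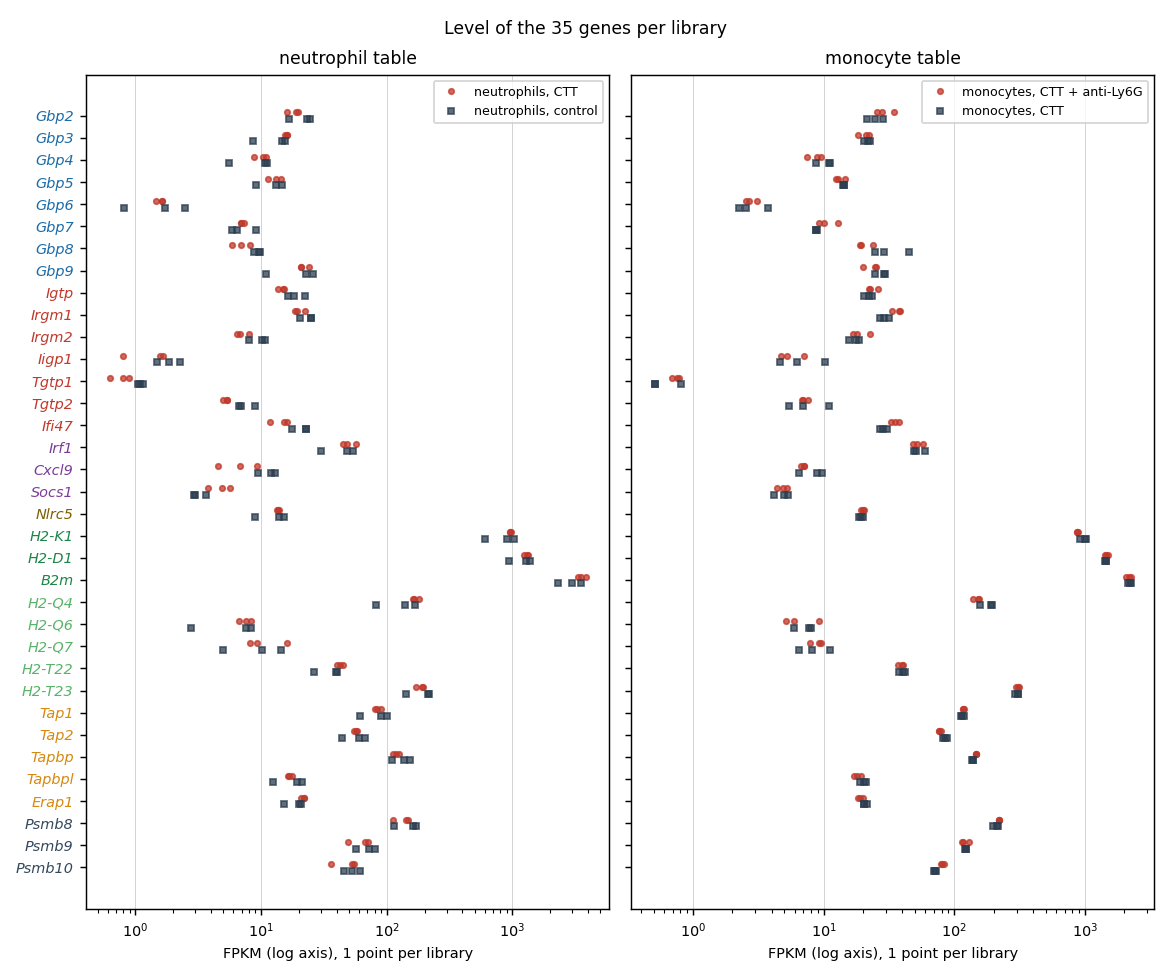
FPKM of each of the 35 genes in every library on a log axis, neutrophil table on the left and monocyte table on the right, with 1 point per library (circles for CTT neutrophils and for monocytes with anti-Ly6G, squares for control neutrophils and for CTT monocytes). B2m, H2-D1 and H2-K1 stand at the right of both panels and Tgtp1 at the left, and for most genes the points of the 2 groups overlap.

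The first comparison asked whether CTT changed these genes in spleen neutrophils by 12 h. None of the 35 genes rose (0 of 35, against 0.567% of all 13058 tested genes) and none fell (0 of 35, against 0% of tested genes) at an adjusted p under 0.05 by the edgeR quasi-likelihood test (Benjamini-Hochberg over every tested gene). The counts were also 0 with DESeq2, where 3.26% of all genes it tested rose and 106 of 13542 fell. They were 0 with limma too, where 0.0476% to 0.528% of all genes rose. At an unadjusted p under 0.05, 1 gene was higher (Socs1) and 3 were lower (Tgtp2, Ifi47 and Cxcl9), against 8.28% and 5.74% of tested genes. The median log2 fold change of the 35 was 0.04, beside −0.02 over all tested genes, with 19 above 0 and a range from −0.67 (Cxcl9) to 0.65 (Socs1). The 3 CTT libraries lay above all 3 controls for 5 genes (Gbp3, Socs1, H2-Q4, H2-T22 and Erap1) and below them for 5 (Gbp8, Igtp, Tgtp1, Tgtp2 and Ifi47), against 13.6% and 11% of all tested genes.

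The median standard error of the log2 fold change in neutrophils was 0.19 for the 35 genes and 0.213 for all tested genes. Control replicate 1 had the lowest CPM of the 6 libraries for 20 of the 35 genes, among them all 3 classical chain genes, Tap1, Tap2, Nlrc5 and Irf1, where 35.8% of all tested genes were lowest in it. Control replicate 3 had the highest value for 18 of the 35, where 13.5% of all tested genes were highest in it. Without control replicate 1 the median log2 fold change was −0.10, 10 of the 35 genes were above 0, and again 0 rose and 0 fell. In that fit 1.93% of all tested genes rose and 31 of 13295 fell. Erythroid markers stood apart in control replicate 1 too, and its B cell marker sum, 2817 CPM, was the lowest of the 6 libraries. Control replicates 2 and 3 had B cell sums of 6388 and 7123 CPM. The class II genes were also lowest there by sum, at 14544 CPM, where control replicates 2 and 3 reached 22290 and 25311 CPM. Neutrophil, monocyte, dendritic cell, T cell and NK cell marker sums were lowest in that library as well. The part of any of these cell types in the values of the 35 genes was not tested.

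**Figure D2:**
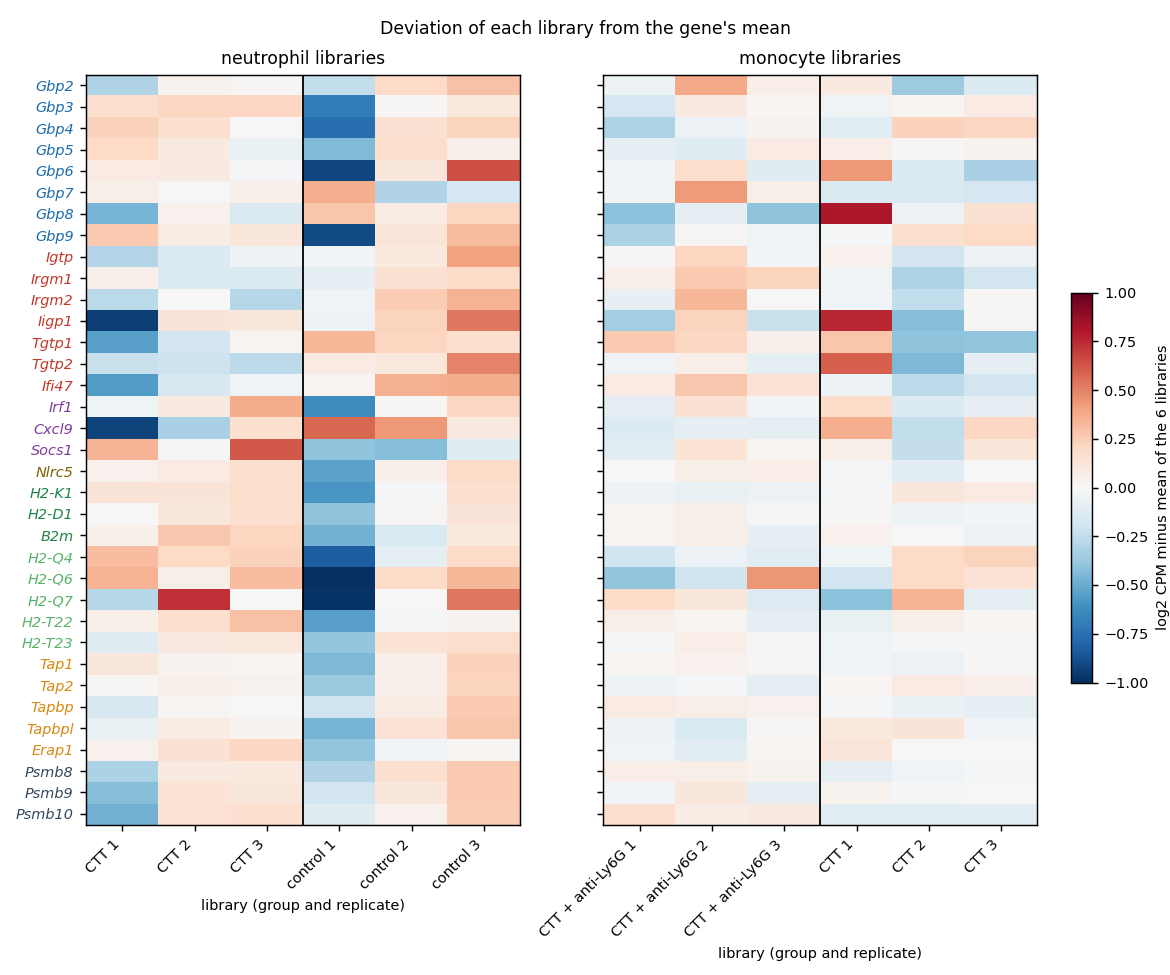
Each gene's log2 CPM in a library minus its mean over the 6 libraries of the table, from blue (lower) to red (higher) with colors clipped at 1 in either direction. In neutrophils the control 1 column is blue for most genes, with 20 of 35 lowest there, and in monocytes the CTT 1 column is red for Gbp8, Iigp1 and Tgtp2.

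Each of the 7 immunity-related GTPases in neutrophils had a log2 fold change below 0 after CTT, from −0.16 (Irgm1) to −0.50 (Ifi47) with a median of −0.41, and none passed the test. Tgtp2 had the smallest p of them, with 15.1, 15.2 and 14.7 CPM after CTT and 18.6, 18.9 and 24.8 CPM in controls. Its CTT libraries all lay below the controls, with a log2 fold change of −0.47 (95% interval −0.86 to −0.08, edgeR adjusted p = 0.325). Ifi47, also called Irg47, had 23.5, 31.2 and 33.7 CPM after CTT and 35.4, 44.5 and 45 CPM in controls, again without overlap (log2 fold change −0.50, edgeR adjusted p = 0.341). Igtp and Tgtp1 did not overlap between the groups either, while Irgm1, Irgm2 and Iigp1 did. All 7 stayed below 0 in each alternative that tested them (17 for 6 of the genes, 16 for Tgtp1), the fit without control replicate 1 among them. Neutrophil markers, at 7408 to 12078 CPM after CTT and 3958 to 5841 CPM in controls, were higher after CTT. Of 9 T cell markers 7 had a log2 fold change below 0 (median −0.27), with sums of 244, 286 and 312 CPM after CTT and 229, 362 and 382 CPM in controls. The 9 dendritic cell markers had a median of −0.24, with 4 above 0. Their sums were 647, 606 and 931 CPM after CTT and 402, 537 and 537 CPM in controls. All 10 erythroid markers lay below 0. Other lists lay mostly above 0, with 9 of 9 NK cell (median 0.33) and 8 of 10 monocyte markers (0.36). So did 8 of 10 B cell (0.18) and 7 of 10 red pulp macrophage markers (0.07). The part of these cell types in the GTPase values was not tested.

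The guanylate binding proteins had no common direction in neutrophils, with 5 of 8 above 0 and a median log2 fold change of 0.08. Gbp8 had the smallest p, with 25.4, 36.3 and 31.8 CPM after CTT and 42.6, 37 and 40.8 CPM in controls. The groups did not overlap, the log2 fold change was −0.37 (SE 0.17, 95% interval −0.76 to 0.03) and the edgeR adjusted p was 0.368. The other 7 ran from −0.18 (Gbp2) to 0.35 (Gbp3), and Gbp3, Gbp4, Gbp5, Gbp6 and Gbp9 each had their lowest value in control replicate 1.

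Among the regulators, Socs1, the inhibitor of JAK kinases that ends the interferon-gamma signal, had 6.55, 5.11 and 7.95 CPM after CTT and 3.91, 3.85 and 4.74 CPM in controls. Every CTT library lay above every control, with a fold of 1.57 (95% interval 1.06 to 2.32) that did not pass the test (log2 fold change 0.65, SE 0.24, edgeR adjusted p = 0.341). Cxcl9, a chemokine that draws CXCR3-bearing T cells, had 13.3, 20.2 and 28.2 CPM after CTT and 37.5, 34 and 26.8 CPM in controls, so that CTT replicate 3 overlapped with control replicate 3 (log2 fold change −0.67, edgeR adjusted p = 0.354). Irf1 had 149, 164 and 200 CPM after CTT and 99.7, 155 and 178 CPM in controls (log2 fold change 0.25, edgeR adjusted p = 0.603). The groups overlapped in part, with control replicate 1 lowest and CTT replicate 3 highest.

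The class I chains lay above 0 in neutrophils without passing the test, and H2-T23, H2-Q7 and H2-Q6 changed sign in 6, 2 and 1 of 17 alternatives, to as low as −0.12, −0.10 and −0.0090. B2m, the light chain of every class I molecule, had 2852, 3324 and 3194 CPM after CTT and 1986, 2477 and 2956 CPM in controls. The lowest CTT library lay below the highest control, and the fold was 1.26 (95% interval 0.957 to 1.67, log2 fold change 0.34, edgeR adjusted p = 0.392). H2-K1 and H2-D1 had log2 fold changes of 0.26 and 0.16, with intervals that also spanned 0. The 5 nonclassical chains ran from 0.03 (H2-T23) to 0.43 (H2-Q4). H2-T22, a chain seen by some gamma-delta T cells, had the smallest p of these, with 123, 133 and 145 CPM after CTT and 81.2, 117 and 121 CPM in controls, no overlap, and a log2 fold change of 0.33 (95% interval −0.08 to 0.74, edgeR adjusted p = 0.399). Nlrc5, which drives transcription of class I genes, had 105, 109 and 115 CPM after CTT and 70.7, 106 and 117 CPM in controls (log2 fold change 0.16, edgeR adjusted p = 0.689), and its sign turned without control replicate 1, to −0.021.

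The genes that prepare peptides were nearest to 0 in neutrophils. Erap1, the aminopeptidase that trims peptides in the endoplasmic reticulum, had 117, 126 and 131 CPM after CTT and 86.2, 111 and 115 CPM in controls, without overlap (log2 fold change 0.26, SE 0.14, edgeR adjusted p = 0.405). Tap1, Tap2, the loading factor Tapbp (tapasin) and its relative Tapbpl ran from −0.10 to 0.08. Psmb9, an immunoproteasome subunit, had 53.9, 79.8 and 78.2 CPM after CTT and 63.3, 78.2 and 86.8 CPM in controls, which overlapped (log2 fold change −0.11, edgeR adjusted p = 0.8). Its sign turned without CTT replicate 1 (0.061) and without control replicate 3 (0.0014). All 3 immunoproteasome subunits had log2 fold changes between −0.11 and −0.09 and their lowest value in CTT replicate 1.

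The second comparison asked what anti-Ly6G added to CTT in spleen monocytes at 5 days. Of the 35 genes, 3 rose, the GTPase genes Irgm1 and Ifi47 and the immunoproteasome subunit gene Psmb10 (8.57%, against 10.2% of all 13294 tested genes), and 0 fell (against 5.12% of tested genes) in the edgeR test at an adjusted p under 0.05. The share that rose was thus near that of all genes. At an unadjusted p under 0.05, 4 genes were higher (Gbp7 beside those 3) and 3 lower (Gbp8, Gbp9 and H2-Q4), against 17.5% and 13.4% of tested genes. DESeq2 called 3 genes higher and 1 lower (H2-Q4), where 11.8% of all genes it tested rose and 1185 of 13009 fell. The median log2 fold change of the 35 genes was 0.00, as it was over all tested genes, with 19 above 0. The libraries with anti-Ly6G lay above all CTT libraries for 8 genes (Gbp7, Irgm1, Ifi47, Tap1, Tapbp, Psmb8, Psmb10 and H2-T23) and below them for 4 (Gbp8, H2-K1, Tap2 and H2-Q4), against 20.6% and 15.4% of tested genes.

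**Figure D3:**
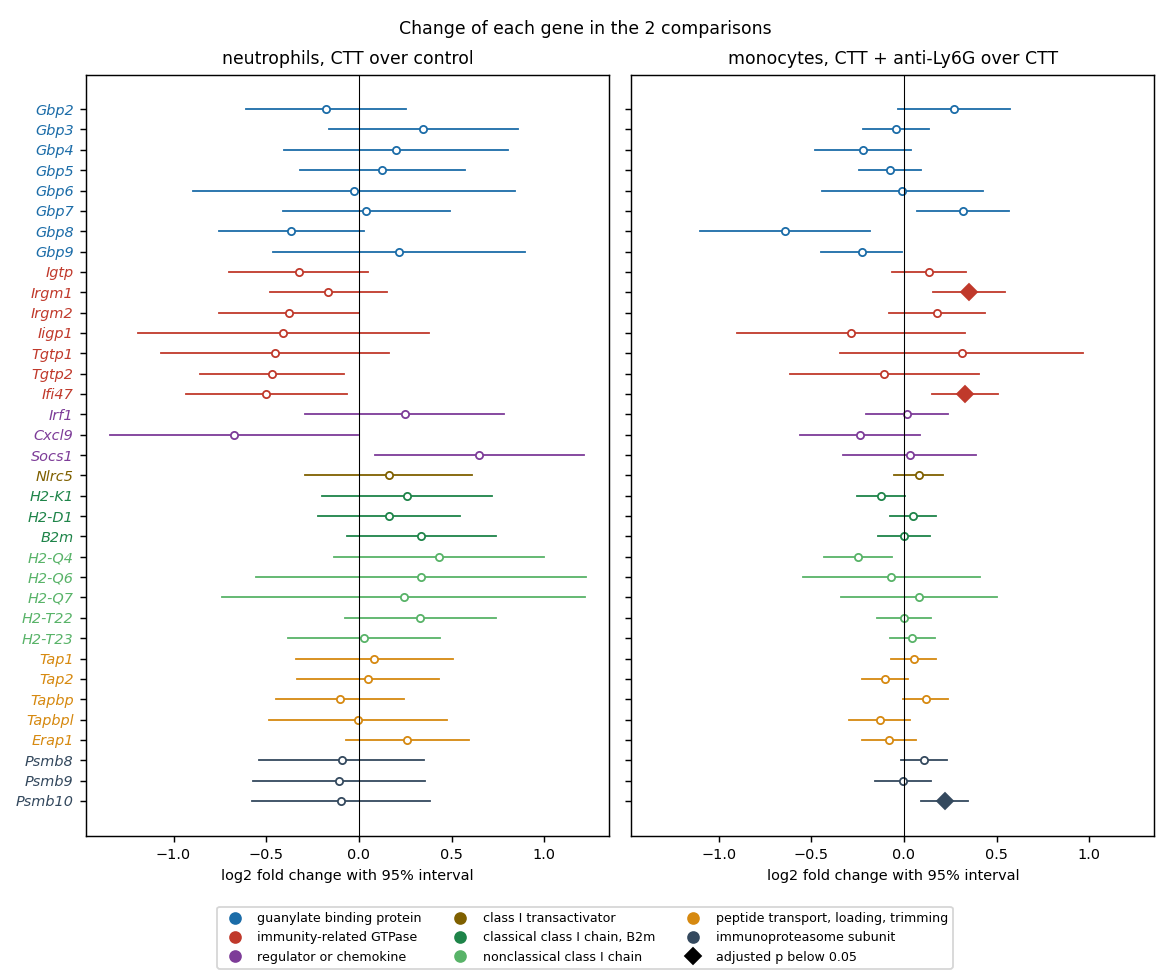
log2 fold change of each gene with its 95% interval, for CTT over control in neutrophils (left) and for CTT with anti-Ly6G over CTT in monocytes (right), colored by role, with filled diamonds for an adjusted p under 0.05. All 7 immunity-related GTPases lie left of 0 in neutrophils with open symbols, and the 3 filled diamonds in monocytes are Irgm1, Ifi47 and Psmb10.

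Irgm1, a GTPase needed for control of mycobacteria in mice and for autophagy, had 92.4, 107 and 104 CPM with anti-Ly6G and 86.8, 72 and 78.3 CPM with CTT alone. The groups did not overlap, and Irgm1 rose 1.28-fold (95% interval 1.12 to 1.46, log2 fold change 0.35, SE 0.085, edgeR adjusted p = 0.0263). Ifi47 had 67.3, 76.7 and 70.4 CPM with anti-Ly6G and 61.4, 53.1 and 56.1 CPM with CTT alone, again without overlap, and rose 1.26-fold (95% interval 1.11 to 1.42, log2 fold change 0.33, SE 0.078, edgeR adjusted p = 0.0238). Psmb10, the immunoproteasome subunit that replaces Psmb7, had 108, 102 and 103 CPM with anti-Ly6G and 89.2, 89.8 and 89.6 CPM with CTT alone. It rose 1.16-fold (95% interval 1.07 to 1.27, log2 fold change 0.22, SE 0.055, edgeR adjusted p = 0.0309), with the CTT libraries within 1 CPM of each other.

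Both promoters with a match and promoters without one were among those 3. Irgm1 is the gene whose promoter, shown above, held 2 IRF-binding elements, and the windows of Ifi47 and Psmb10 held none. The 14 genes with an IRF-binding element had a median log2 fold change of 0.04 in monocytes, with 1 that rose, and the 13 genes whose window held none had 0.05, with 2 that rose.

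These 3 calls did not hold when most single libraries were left out. With any one of anti-Ly6G replicate 2, anti-Ly6G replicate 3, CTT replicate 2 or CTT replicate 3 left out, 0 of the 35 genes rose, with edgeR adjusted p-values of 0.0633 to 0.114 for Irgm1, Ifi47 and Psmb10, and without anti-Ly6G replicate 1 Psmb10 was lost (edgeR adjusted p = 0.115). Without CTT replicate 1, 4 rose (Gbp2 too) and 5 fell (Gbp4, Gbp8, Gbp9, H2-K1 and H2-Q4). In that fit 12.5% of all tested genes rose and 1168 of 13525 fell. In the fits where none of the 35 rose, 5.22% to 6.87% of all tested genes did. The log2 fold changes of the 3 genes kept their sign in all 17 alternatives, at 0.28 to 0.42 for Irgm1, 0.27 to 0.39 for Ifi47 and 0.17 to 0.24 for Psmb10. Over all 6 libraries, where 10.2% of all tested genes rose and 5.12% fell, marker genes changed too. Of 10 monocyte markers 7 rose and 2 fell (median log2 fold change 0.61). Neutrophil markers were higher with anti-Ly6G, with 10 of 12 that rose and sums of 17474, 16232 and 12907 CPM against 6560, 4861 and 4727 CPM with CTT alone. Red pulp macrophage markers were lower, with 7 of 10 that fell and sums of 8197, 8202 and 7531 CPM against 15725, 9390 and 10854 CPM with CTT alone. The part of these cell types in the changes of the 3 genes was not tested.

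**Figure D4:**
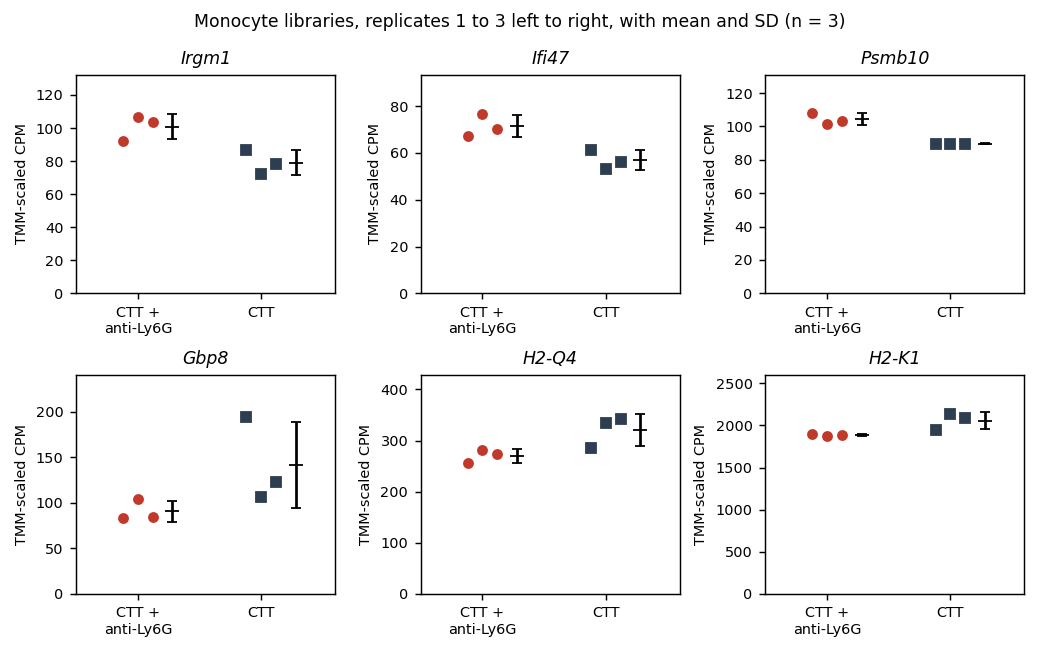
TMM-scaled CPM per library (replicates 1 to 3 from left to right) with the mean and SD (n = 3) for 6 genes in monocytes, CTT with anti-Ly6G on the left and CTT alone on the right of each panel. Irgm1, Ifi47 and Psmb10 are higher in all 3 anti-Ly6G libraries, H2-Q4 and H2-K1 are lower without overlap, and Gbp8 has 1 CTT library at 195 CPM above the other 5.

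The other immunity-related GTPases in monocytes had log2 fold changes from −0.28 (Iigp1) to 0.31 (Tgtp1) and overlapped between the groups. Iigp1 had 16.7, 24.7 and 18.2 CPM with anti-Ly6G and 35.6, 15.8 and 21.3 CPM with CTT alone, and Tgtp2 had 20.1, 21.4 and 19.4 CPM with anti-Ly6G and 31.2, 15.1 and 19.3 CPM with CTT alone. In both, CTT replicate 1 was the highest of the 6 libraries. That library was highest for 8 of the 35 genes (Gbp6, Gbp8, Iigp1, Tgtp1, Tgtp2, Irf1, Cxcl9 and Erap1), where 18.9% of all tested genes were highest in it, and it was the library with 15725 CPM of red pulp macrophage markers. The part of that cell type in these values was not tested.

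The guanylate binding proteins again had no common direction in monocytes, with 2 of 8 above 0 and a median log2 fold change of −0.06. Gbp8 had 83.4, 104 and 84 CPM with anti-Ly6G and 195, 106 and 123 CPM with CTT alone. The groups did not overlap, but the log2 fold change of −0.64 (SE 0.2, 95% interval −1.10 to −0.19) missed the threshold (edgeR adjusted p = 0.0637) and was −0.34 without CTT replicate 1, where it passed (edgeR adjusted p = 0.0412). It passed too without CTT replicate 2 (−0.82, edgeR adjusted p = 0.026). Gbp9, with 114, 143 and 138 CPM with anti-Ly6G and 140, 159 and 163 CPM with CTT alone, lies next to it on chromosome 5 and had a log2 fold change of −0.23 (edgeR adjusted p = 0.149), while Gbp2 and Gbp7 on chromosome 3 had 0.27 (edgeR adjusted p = 0.209) and 0.32 (edgeR adjusted p = 0.0859).

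None of the 3 regulators passed the test over all 6 monocyte libraries. Cxcl9 had 20, 20.6 and 20.5 CPM with anti-Ly6G and 28.2, 18.5 and 25.3 CPM with CTT alone (log2 fold change −0.24, SE 0.14, edgeR adjusted p = 0.297), with the anti-Ly6G libraries inside the range of the CTT libraries. It passed without CTT replicate 2 (−0.40, edgeR adjusted p = 0.0367) and was at −0.11 without CTT replicate 1. Irf1 and Socs1 had log2 fold changes of 0.02 (95% interval −0.21 to 0.24) and 0.03 (−0.33 to 0.39). Nlrc5 had 154, 161 and 163 CPM with anti-Ly6G and 154, 144 and 155 CPM with CTT alone (log2 fold change 0.08, SE 0.058, edgeR adjusted p = 0.392).

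The class I chains were measured with narrow intervals in monocytes. B2m had 1898, 1933 and 1755 CPM with anti-Ly6G and 1919, 1865 and 1795 CPM with CTT alone, so that a change of more than 1.1-fold in either direction lay outside its 95% interval (fold 1, interval 0.909 to 1.1, edgeR adjusted p = 0.989). H2-K1 had 1900, 1876 and 1889 CPM with anti-Ly6G and 1949, 2135 and 2088 CPM with CTT alone. All 3 anti-Ly6G libraries lay below the CTT libraries, by a log2 fold change of −0.12 (SE 0.057) that did not pass the test (edgeR adjusted p = 0.182), though it did without CTT replicate 1. H2-D1, the other classical heavy chain, had a log2 fold change of 0.05 (95% interval −0.07 to 0.17). H2-Q4, a chain of the MHC's Q region, had 255, 282 and 273 CPM with anti-Ly6G and 285, 335 and 343 CPM with CTT alone, without overlap (log2 fold change −0.25, 95% interval −0.43 to −0.06, edgeR adjusted p = 0.0721, and 0.00438 without CTT replicate 1). H2-Q6 and H2-Q7, which encode Qa-2 antigens, and H2-T22 and H2-T23 lay between −0.07 and 0.08.

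Peptide loading genes in monocytes lay between −0.13 (Tapbpl) and 0.12 (Tapbp). Tapbp, which bridges class I chains to TAP, had 413, 407 and 402 CPM with anti-Ly6G and 387, 373 and 367 CPM with CTT alone. The groups did not overlap, and the log2 fold change of 0.12 (SE 0.054) missed the threshold (edgeR adjusted p = 0.172). The transporter chains lay on either side of 0, Tap1 at 0.05 and Tap2 at −0.10, each without overlap between the groups and neither past the test (edgeR adjusted p = 0.555 for Tap1 and 0.237 for Tap2). Among the immunoproteasome subunits Psmb8 had a log2 fold change of 0.11 (edgeR adjusted p = 0.216) and Psmb9 of 0.00 (edgeR adjusted p = 0.974), beside the rise of Psmb10.

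Each immunoproteasome subunit takes the place of a constitutive one, so the ratio of the 2 per gene length describes the balance of their transcripts. In neutrophils Psmb8/Psmb5 averaged 2.56 ± 0.152 after CTT and 2.27 ± 1.14 in controls (SD, n = 3 each, exact two-sided permutation p = 0.8), and control replicate 1 stood at 1.04 where the other controls were at 2.5 and 3.28. Psmb9/Psmb6 averaged 0.877 ± 0.132 after CTT and 0.817 ± 0.296 in controls, and Psmb10/Psmb7 averaged 0.779 ± 0.155 after CTT and 0.656 ± 0.294 in controls (exact permutation p = 0.8 and 0.7). In that library the constitutive Psmb5 was at 94.8 CPM, against 54.6 and 44.3 CPM in the other controls and 38.7 to 53 CPM after CTT. Without control replicate 1 all 3 neutrophil ratios turned to lower values after CTT, with log2 ratios of means of −0.17, −0.16 and −0.063.

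In monocytes Psmb8/Psmb5 averaged 2.35 ± 0.290 with anti-Ly6G and 2.78 ± 0.143 with CTT alone, and Psmb9/Psmb6 averaged 1.82 ± 0.192 with anti-Ly6G and 2.07 ± 0.124 with CTT alone (SD, n = 3 each, exact permutation p = 0.2 for each). Psmb10/Psmb7 averaged 0.913 ± 0.0255 with anti-Ly6G and 0.897 ± 0.0476 with CTT alone (exact permutation p = 0.7) and overlapped between the groups, with Psmb7 itself at a log2 fold change of 0.19 (edgeR adjusted p = 0.078). Over the 6 exact tests the Benjamini-Hochberg adjusted p-values were 0.6 to 0.8, and 3 against 3 libraries cannot reach a p below 0.1.

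**Figure D5:**
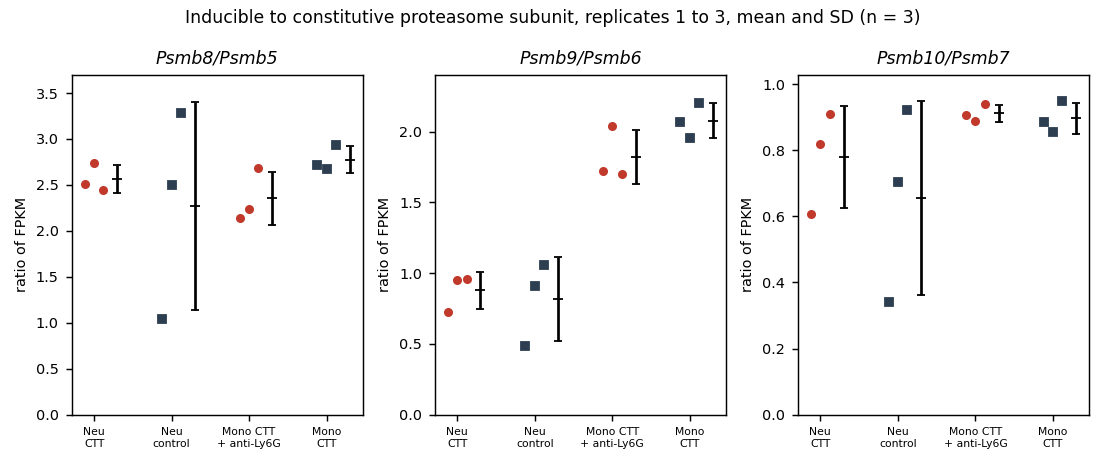
Ratio of the FPKM of an inducible to that of its constitutive proteasome subunit in each library (points, replicates 1 to 3 from left to right) with the mean and SD (n = 3), for neutrophils after CTT and in control, and monocytes with CTT and anti-Ly6G and with CTT alone. Control neutrophil replicate 1 is lowest in every panel, at 1.04 for Psmb8/Psmb5, and the monocyte groups overlap in all 3.

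Upstream of these genes, Ifng had 4.17, 7.16 and 8.13 CPM in neutrophil libraries after CTT and 1.57, 3.66 and 3.54 CPM in controls, all 3 CTT libraries above the controls, but did not pass the test (log2 fold change 1.15, SE 0.40, edgeR adjusted p = 0.325). NK cell markers in the same libraries summed to 88.9, 124 and 156 CPM after CTT and 72.9, 100 and 108 CPM in controls, and their part in the Ifng values was not tested. In monocyte libraries Ifng stood at 13 to 25 counts with anti-Ly6G and 13 to 38 counts with CTT alone (log2 fold change −0.59, edgeR adjusted p = 0.467), too few to measure a modest change. Ifngr1, the ligand-binding chain of the receptor, had log2 fold changes of 0.26 in neutrophils (edgeR adjusted p = 0.351) and 0.19 in monocytes (edgeR adjusted p = 0.157). In monocytes it passed without CTT replicate 1 (0.27, edgeR adjusted p = 0.0148) and was at 0.11 without CTT replicate 2. The signal-receiving chain Ifngr2 was at 86.8, 99.1 and 87.5 CPM in neutrophils after CTT and 61.4, 102 and 94.9 CPM in controls (log2 fold change 0.08, edgeR adjusted p = 0.859). In monocytes it rose, with 117, 116 and 114 CPM with anti-Ly6G and 88.3, 84.5 and 94.1 CPM with CTT alone (log2 fold change 0.38, SE 0.06, edgeR adjusted p = 0.00439).

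Of 14 genes of interferon-gamma receptor signaling in neutrophils, 1 rose (7.14%, against 0.567% of all tested genes) and 0 fell. Their median log2 fold change was 0.18. The riser was Socs3, an inhibitor of cytokine receptors that signal through JAK kinases, with 287, 234 and 266 CPM after CTT and 113, 141 and 134 CPM in controls (1.02, SE 0.14, edgeR adjusted p = 0.0361). That call was lost when any CTT library, control replicate 2 or control replicate 3 was left out (edgeR adjusted p = 0.121 to 0.203, edgeR unadjusted p = 0.000438 to 0.00102). In those fits 0 of all tested genes rose, so the loss was not particular to Socs3. The call was lost too with upper quartile scaling (edgeR adjusted p = 0.0639), library totals (edgeR adjusted p = 0.0587), the replicate block (edgeR adjusted p = 0.0924) and limma on FPKM values (adjusted p = 0.0561 to 0.111). With these settings 0.0306% to 0.461% of all tested genes rose. The log2 fold change of Socs3 stayed between 0.94 and 1.10. In monocytes 3 of the 14 rose, Ifngr2, the phosphatase gene Ptpn1 (0.36, edgeR adjusted p = 0.00406) and Irf9, the DNA-binding subunit of the factor that relays type I interferon signals (0.22, edgeR adjusted p = 0.0337), 0 fell, and the median was 0.02, where 10.2% of all tested genes rose and 5.12% fell. The call of Irf9 was lost with any library but CTT replicate 1 left out (edgeR adjusted p = 0.0557 to 0.12), where 5.22% to 6.87% of all tested genes rose. It was lost too with upper quartile scaling (edgeR adjusted p = 0.0799), with library totals (edgeR adjusted p = 0.067) and with limma on FPKM values (adjusted p = 0.0564 to 0.0725). Without control replicate 1, 2 of the 14 rose in neutrophils, where 1.93% of all tested genes rose.

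Other genes around the pathway were counted in both comparisons. In neutrophils 0 of 14 other interferon-gamma-induced genes rose or fell, with a median log2 fold change of −0.05 and the smallest p for Wars, a tRNA synthetase (−0.45). Nor did any of 6 proteasome activator and constitutive catalytic subunit genes (median −0.31, smallest p for Psmb7 at −0.54), 6 chaperones of class I folding (median −0.03, smallest p for Hspa5, the chaperone BiP, at 0.47), 6 other class I and related chains (median 0.08, smallest p for H2-Q10 at 0.92), 9 class II chains (median 0.17, smallest p for H2-Oa at 0.35) or 16 type I interferon-induced genes (median 0.04, smallest p for Cmpk2 at −0.88), all as log2 fold changes. With DESeq2, H2-Q10 (0.91, DESeq2 adjusted p = 0.00754) and Cmpk2 (−0.89, DESeq2 adjusted p = 0.0315) passed. That test called more genes of every kind, with 3.26% of all genes it tested that rose and 106 of 13542 that fell. In the main test 0.567% rose and 0 fell. Without control replicate 1, where these 6 proteasome genes had a sum of 1029 CPM (665 to 724 CPM after CTT, 725 and 726 CPM in control replicates 2 and 3), Psmb7 was at −0.13 and H2-Oa at 0.10.

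In monocytes the other interferon-gamma-induced genes went both ways, with 1 of 16 that rose (6.25%, against 10.2% of all tested genes) and 2 that fell (12.5%, against 5.12%), and a median of −0.30. Nos2, the inducible nitric oxide synthase of activated macrophages, had 4.04, 2.73 and 4.76 CPM with anti-Ly6G and 0.125, 0.154 and 0.0292 CPM with CTT alone (log2 fold change 5.19, edgeR adjusted p = 0.000381), where the CTT libraries held 1 to 5 counts. Ubd, a ubiquitin-like protein that sends proteins to the proteasome, fell by 1.41 on the log2 scale (edgeR adjusted p = 0.0196), and Serpina3g, a serine protease inhibitor, by 0.39 (edgeR adjusted p = 0.0163). Of the 6 proteasome activator and constitutive subunit genes, 2 rose, the activator subunit gene Psme2 (0.23, edgeR adjusted p = 0.0265) and the constitutive subunit gene Psmb5 (0.36, edgeR adjusted p = 0.0351), and of the 6 folding chaperones 1 rose, the glucose-transferring folding sensor Uggt1 (0.28, edgeR adjusted p = 0.016). These counts moved when single libraries were left out, as did those over all tested genes, where 5.22% to 12.5% rose and 177 to 1168 genes fell. The falls in the first list were 0 without anti-Ly6G replicate 1 or 3 or CTT replicate 3, 5 without CTT replicate 1 and 4 without CTT replicate 2, and its rises 2 without anti-Ly6G replicate 3 and 3 without CTT replicate 1. The proteasome rises were 0 without anti-Ly6G replicate 1 or 2 or CTT replicate 2 or 3 and 1 without anti-Ly6G replicate 3, and the rise of Uggt1 was lost without anti-Ly6G replicate 1 or 3 or CTT replicate 2 or 3.

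Some related presentation molecules fell in monocytes, where the classical class I genes did not pass the test. Over all 13294 tested genes 10.2% rose and 5.12% fell in this comparison. Of 8 other class I and related chains, 2 fell, Cd1d1, which presents lipids (log2 fold change −0.69, edgeR adjusted p = 0.00316), and Mr1, which presents vitamin B metabolites (−0.55, edgeR adjusted p = 0.0125), with a median of −0.43. Of 9 class II genes, 7 fell and 0 rose (median −0.33), among them Cd74, the invariant chain (−0.39, edgeR adjusted p = 0.00967), H2-Ab1 (−0.32, edgeR adjusted p = 0.0249), H2-Oa (−0.43, edgeR adjusted p = 0.0249) and H2-Eb1 (−0.33, edgeR adjusted p = 0.0319). B cell markers, whose cells carry class II, summed to 2644, 3243 and 3624 CPM with anti-Ly6G and 3383, 4958 and 4846 CPM with CTT alone, and their part in this was not tested. Of 16 type I interferon-induced genes, 12 rose and 0 fell (median 0.74), with the smallest p for the antiviral oligoadenylate synthetase gene Oas3 (1.38, edgeR adjusted p = 0.000381), Oas1a (0.91, edgeR adjusted p = 0.000905), Oas2 (1.04, edgeR adjusted p = 0.000905) and Cmpk2 (0.75, edgeR adjusted p = 0.00323). Their median stood beside 0.00 for the 35 genes in the same libraries, a difference that was not tested. The type I count was 6 without CTT replicate 2 and 5 without CTT replicate 3, where 6.46% and 5.22% of all tested genes rose. The class II count was 0 without anti-Ly6G replicate 1, 1 without anti-Ly6G replicate 2 or CTT replicate 3 and 2 without CTT replicate 2, and the count of related chains was 1 without anti-Ly6G replicate 1 or CTT replicate 3. Over all tested genes 177 fell without anti-Ly6G replicate 1, 318 without anti-Ly6G replicate 2 and 278 without CTT replicate 3. Without CTT replicate 2 531 fell, against 681 in the main analysis.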

How the data were processed

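RNA from Ly6G-selected and CCR2-selected spleen cells was sequenced in 12 libraries, 3 in each of 4 groups, and the titles gave groups and biological replicate numbers. For each cell type the authors deposited a table of raw read counts by gene, and the submitters' processing notes name HISAT2, HTSeq and the mm10 build. The sources used here give no versions, gene annotation or strand setting, so reads of overlapping or antisense genes cannot be told apart. The authors also deposited FPKM values, which were used for levels between genes, subunit ratios and alternatives.

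Counts were tested per cell type in R 4.3.3 with edgeR 4.0.16 (filterByExpr, TMM, two-sided quasi-likelihood F test, Benjamini-Hochberg over all 13058 or 13294 tested genes, threshold 0.05). All 35 genes passed the filter in both tables. Rose and fell mean past that threshold. CPM values are TMM-scaled. SE is the absolute log2 fold change divided by the square root of F. Intervals are 95% intervals. Subunit ratios were compared by an exact permutation test. Gene positions and promoters came from RefSeq (GRCm38.p6). The fitting step was tested on simulated data.

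The 35 genes, the 7 pathway lists, the 8 marker lists, the alternatives and the naming rule were chosen with earlier results of these data known. Named with values in every library were genes past the threshold and, in each role, the one with the smallest p. Of each pathway list, up to 4 genes past the threshold or, where none passed, the one with the smallest p were named, and Ifng, Ifngr1 and Ifngr2 whatever their values. Another gene of that rule is not reported here. Further genes named with values were chosen after their values were seen. Alternatives were other normalizations and filters, DESeq2 1.42.0, limma 3.58.1 on counts or on log2(FPKM + 1) or log2(FPKM + 0.1), a replicate block and leaving out each library.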

Additional observations from a re-analysis of the deposited data

How the results depend on the processing

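In neutrophils 0 of the 35 genes rose or fell in any of the 17 alternatives, and leaving out each library gave 0 to 0. Over all tested genes, too, 0 rose and 0 fell when any CTT library, control replicate 2 or control replicate 3 was left out. A count of 0 of the 35 was thus fixed in those fits and says nothing about these genes. Without control replicate 1, 1.93% of all tested genes rose and 31 of 13295 fell. In monocytes the count that rose was 3 in the main analysis, 1 with limma on log2(FPKM + 1), 1 on log2(FPKM + 0.1) (Psmb10 in both) and 0 to 4 when single libraries were left out. The count that fell was 0 in the main analysis, 2 with upper quartile scaling (Gbp8 and H2-Q4), 1 with library totals (Gbp8), 1 without a filter (Gbp8), 1 with DESeq2 (H2-Q4), 3 with the replicate block (Gbp4, Gbp9 and H2-Q4) and 0 to 5 when single libraries were left out. Over all tested genes in monocytes 681 fell in the main analysis, 1030 with upper quartile scaling, 816 with library totals and 726 without a filter. With DESeq2 1185 fell, and 1043 with the replicate block. The share of all tested genes that rose was 10.2% in the main analysis. It was 5.21% with limma on log2(FPKM + 1) and 5.41% on log2(FPKM + 0.1). Psmb10 missed the threshold with upper quartile scaling (edgeR adjusted p = 0.0692) and with library totals (edgeR adjusted p = 0.0533). The cause of these differences was not tested. The sign of 16 of the 35 genes in neutrophils and 13 in monocytes changed in at least 1 alternative, all with log2 fold changes that did not pass the main test.

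Log2 subunit ratios turned without control neutrophil replicate 1 (Psmb8/Psmb5 −0.17, Psmb9/Psmb6 −0.16, Psmb10/Psmb7 −0.063, range over single libraries left out −0.17 to 0.54, −0.16 to 0.33 and −0.063 to 0.58) and, for Psmb10/Psmb7 in monocytes, without CTT replicate 2 (−0.0068, range −0.0068 to 0.068). Log2 fold changes turned in neutrophils for Psmb9 without CTT replicate 1 (0.061) and without control replicate 3 (0.0014, range −0.22 to 0.061), and without control replicate 1 for Nlrc5 (−0.021, range −0.021 to 0.31) and Ifngr2 (−0.11, range −0.11 to 0.22).

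Same-numbered libraries did not deviate together in every pair (r of 0.199, 0.00548 and 0.189 in neutrophils and 0.0651, −0.0267 and 0.0868 in monocytes). Libraries of different numbers had r of −0.220 to 0.156 in neutrophils and −0.104 to 0.0347 in monocytes. Numbers 1 and 3 thus had a higher r than any differently numbered pair in both. The labels do not name pairs, so the main test did not pair the libraries, and a link between same-numbered libraries was not tested further. With the replicate block 0 of the 35 genes rose or fell in neutrophils, and 3 rose and 3 fell in monocytes. In that monocyte fit 11.7% of all tested genes rose and 1043 of 13294 fell. Over all tested genes 4 rose and 1 fell with the block in neutrophils, against 74 and 0 in the main analysis, 257 and 31 without control replicate 1, and 441 and 106 with DESeq2. Of the pathway lists in monocytes, with limma on log2(FPKM + 1) the class II genes that fell were 0 and the type I interferon-induced genes that rose 5, against 7 and 12. With that setting 5.21% of all tested genes rose and 322 of 16954 fell. The spread between libraries (edgeR's common coefficient of variation) was 0.275 for neutrophil and 0.114 for monocyte libraries. The part of this spread and of depth in the precision was not tested.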
